A study of Homo sapiens with 6 samples.

Results

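Tau, encoded by MAPT, and 9 related genes of microtubule-associated proteins were followed in the U87 cell line: MAP2, MAP4, MAP1A, MAP1B, MAP1S, MAP6, MAP7, DCX and DCLK1. The 10 genes were chosen by name, and each had a single row among the 32299 genes of the deposited table. U87 is an established human glioblastoma line, and its messenger RNA was read in 6 libraries by paired-end sequencing. The labels give 3 libraries to cells overexpressing tau and 3 to cells transfected with a control vector, here called tau-labelled and control-labelled libraries 1, 2 and 3. The labels name no tau isoform, promoter or clone, no time after transfection and no separate cultures, so p-values measure the spread between these libraries, which may be technical.

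Microtubule-associated proteins bind along the wall of the microtubule and change how stable it is and which motors walk on it. Tau is best known from axons, MAP2 from dendrites and MAP4 from cells outside the nervous system, and the 3 share a repeated microtubule-binding region. MAP1A, MAP1B and MAP1S form a family of their own, made as precursors that are cut into heavy and light chains. MAP6 protects microtubules from cold, MAP7 recruits kinesin, and doublecortin, encoded by DCX, and its kinase relative DCLK1 bind between the filaments of the microtubule wall.

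Of the 10 genes, 3 rose in the tau-labelled libraries (MAP1B, MAP1S and DCLK1), 3 fell (MAPT, MAP1A and MAP6), 3 did not pass the test (MAP2, MAP4 and MAP7) and DCX was not tested. A gene is said to have risen or fallen where edgeR's quasi-likelihood test gave a Benjamini-Hochberg adjusted p below 0.05 over all genes tested. The comparison touched much of the transcriptome: of 17927 genes tested, 21.3% rose and 21.4% fell, 42.7% in all. The counts of 3 and 3 among 9 members tested are therefore read one gene at a time. The members' median log2 fold change was 0.02, against 0.00439 over all genes tested. By FPKM (fragments scaled by gene length and library depth), the libraries of the labels did not overlap for 7 of the 9 members tested, 4 higher and 3 lower in the tau-labelled libraries. Over all genes tested, 32.5% were higher in this way and 23.6% lower, 56.1% in all.

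**Figure D1:**
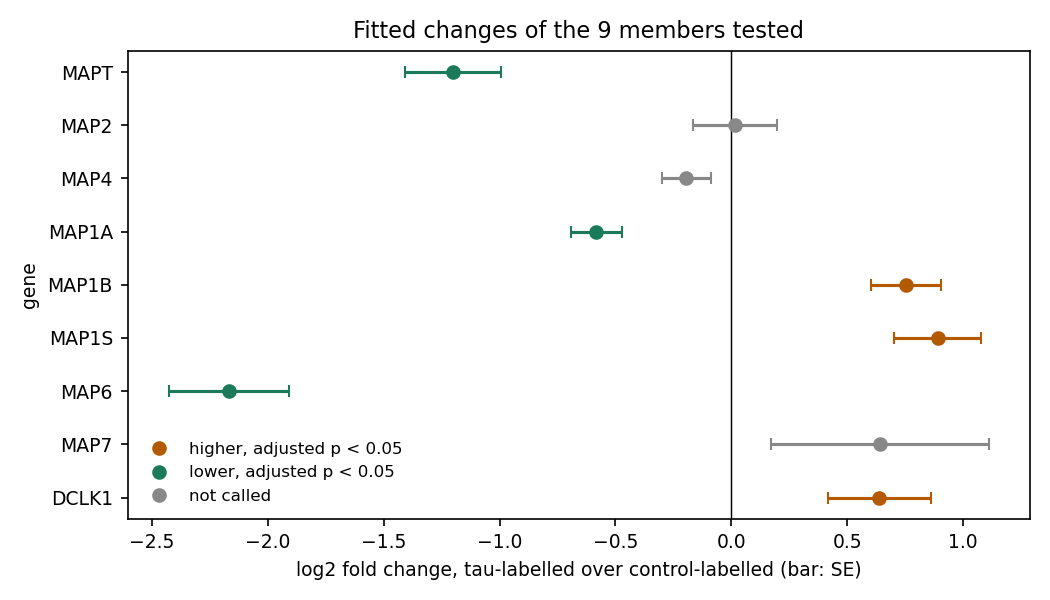
Log2 fold changes fitted by edgeR (horizontal axis, tau-labelled over control-labelled libraries, 3 each) for the 9 members tested, with bars of 1 standard error. MAP6 lies farthest from 0 at -2.17 and MAP1S farthest on the higher side at 0.89, while the MAP2 point sits at 0.02.

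The 6 libraries held 58229083 to 65512119 counts each. Log2 CPM (counts scaled to the library total, here adjusted by edgeR's TMM factors) correlated at 0.972 to 0.977 between libraries of 1 label. Of 6 marker genes of cultured mesenchymal glioma cells, all were in the table, and their summed FPKM was 2161 to 2244 in the tau-labelled and 1971 to 2042 in the control-labelled libraries. VIM, the intermediate filament vimentin, supplied most of this, with 1726 to 1834 FPKM and 1307 to 1379 FPKM, and rose. NES (nestin) and SPARC of the same list fell (log2 fold changes -2.15 and -1.70). The 7 neuron markers in the table summed to 1.36 to 1.55 FPKM in the tau-labelled and 1.16 to 1.34 FPKM in the control-labelled libraries, and 1 of 5 tested, SYN1, rose. ELAVL4 was listed at 0 in 5 of the 6 libraries, AIF1 of microglia and MAG of oligodendrocytes in all 6. The table had no row for STMN2, NEFL and INA of neurons, AQP4 of astrocytes, MOG of oligodendrocytes, or P2RY12 and PTPRC of immune cells. Of 4 endothelial markers, 3 fell and their sum was 0.409 to 0.449 FPKM, against 2.36 to 2.74 FPKM. Of 5 astrocyte markers in the table, 3 fell, with sums of 2.00 to 2.25 FPKM and 3.48 to 5.14 FPKM. The oligodendrocyte markers summed to 0.553 to 0.672 FPKM and 0.338 to 0.704 FPKM, and 1 of 3 tested rose. Of 3 microglia and immune markers in the table, 1 was tested and fell, with sums of 1.08 to 1.42 FPKM and 5.75 to 6.29 FPKM. The part of these shifts in the results was not tested. The labels name a single cell line, so these sums are not read as numbers of cells of each type. In bulk RNA, fewer cells expressing a gene and less of its RNA per cell cannot be told apart.

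MAPT, the gene the tau label names, was among the lowest members in both groups and fell in the tau-labelled libraries. MAPT (ENSG00000186868, chromosome 17, 45894527 to 46028334 on the plus strand, GRCh38) had 0.147, 0.156 and 0.165 FPKM in tau-labelled libraries 1, 2 and 3. Its level was 0.268, 0.399 and 0.333 FPKM in control-labelled libraries 1, 2 and 3. The highest tau-labelled library lay below the lowest control-labelled one, and the control-labelled libraries were spread more widely, with a coefficient of variation of 19.6%, against 5.63% among the tau-labelled ones. These values rest on 145, 150 and 176 counts in the tau-labelled and 279, 391 and 345 counts in the control-labelled libraries. The log2 fold change of MAPT was -1.20 ± 0.21 (SE, 3 libraries each, edgeR adjusted p = 0.00151). The measured MAPT level thus ran against the label in each tau-labelled library. Each direction given here is therefore that of libraries labelled tau relative to libraries labelled control, and is not tied to a measured rise of tau.

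Reads from neighbouring transcripts were few at this locus. MAPT-AS1, which lies on the opposite strand and overlaps 1135 bases of the MAPT gene, had 0 counts in all 6 libraries. A count of 0 allows up to 0.0458 to 0.0515 CPM per library with a limit of 3 counts, here without the TMM adjustment. STH, a gene without introns inside the MAPT gene on the same strand, had 14 counts in tau-labelled library 2 and 0 in the other libraries. The labels' protocols mark the strand, but whether the counting used it is not stated, so overlapping genes may share reads.

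MAP4, the microtubule-associated protein of most dividing cells, was the most abundant of the 3 repeat proteins by far. MAP4 (ENSG00000047849, chromosome 3, 47850690 to 48089272, minus strand) had 42.5, 43.2 and 44.6 FPKM in tau-labelled libraries 1, 2 and 3, against 48.1, 48.0 and 41.2 FPKM in control-labelled libraries 1, 2 and 3. The groups overlapped, since control-labelled library 3 lay below all tau-labelled libraries. The log2 fold change of MAP4 was -0.19 ± 0.11 (SE), which did not pass (edgeR adjusted p = 0.171). It passed in 3 of 17 other settings: without control-labelled library 3 (-0.30, edgeR adjusted p = 0.0493), with gene length offsets (-0.47, edgeR adjusted p = 0.0225) and with GC content and gene length offsets (-0.26, edgeR adjusted p = 0.0485). It was -0.08 with library size alone and -0.07 with limma at either pseudocount (adjusted p 0.490 to 0.532), and -0.46 with the replicate block and gene length offsets (edgeR adjusted p = 0.0578), none of which passed.

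MAP2 (ENSG00000078018, chromosome 2, 209424047 to 209734118, plus strand), the dendritic member, stood near the middle of all genes tested. It had 2.33, 2.82 and 2.04 FPKM in tau-labelled libraries 1, 2 and 3, against 1.58, 2.30 and 2.70 FPKM in control-labelled libraries 1, 2 and 3. The groups overlapped almost fully. The log2 fold change of MAP2 was 0.02 ± 0.18 (SE, edgeR adjusted p = 0.952), and its sign was not stable: it was -0.16 without control-labelled library 1 and -0.10 without tau-labelled library 2. With offsets for GC content and gene length, an alternative added after the data were seen, MAP2 passed as lower (-0.36, edgeR adjusted p = 0.0147).

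Within the summed FPKM of these 3 repeat proteins, MAP4 held 94.4% ± 0.865 in the tau-labelled and 94.7% ± 1.58 in the control-labelled libraries (SD, n = 3 each). MAP2 held 4.37% to 6.11% and 3.17% to 6.10%, and MAPT 0.339% ± 0.0125 and 0.692% ± 0.135. As a ratio of FPKM to that of MAP4, MAPT stood at 0.00347, 0.00361 and 0.00370 in tau-labelled libraries 1, 2 and 3, against 0.00558, 0.00830 and 0.00809 in the control-labelled ones. The tau-labelled ratios all lay below the control-labelled ratios, 2.01-fold lower by their mean on the log2 scale (two-sided exact permutation test, p = 0.1, the smallest that 3 against 3 allows, and 0.2 adjusted over the 4 ratios tested). The ratio of MAP2 to MAP4 overlapped between the groups, with a log2 difference of 0.22 (exact permutation p = 0.7, adjusted 0.7).

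**Figure D2:**
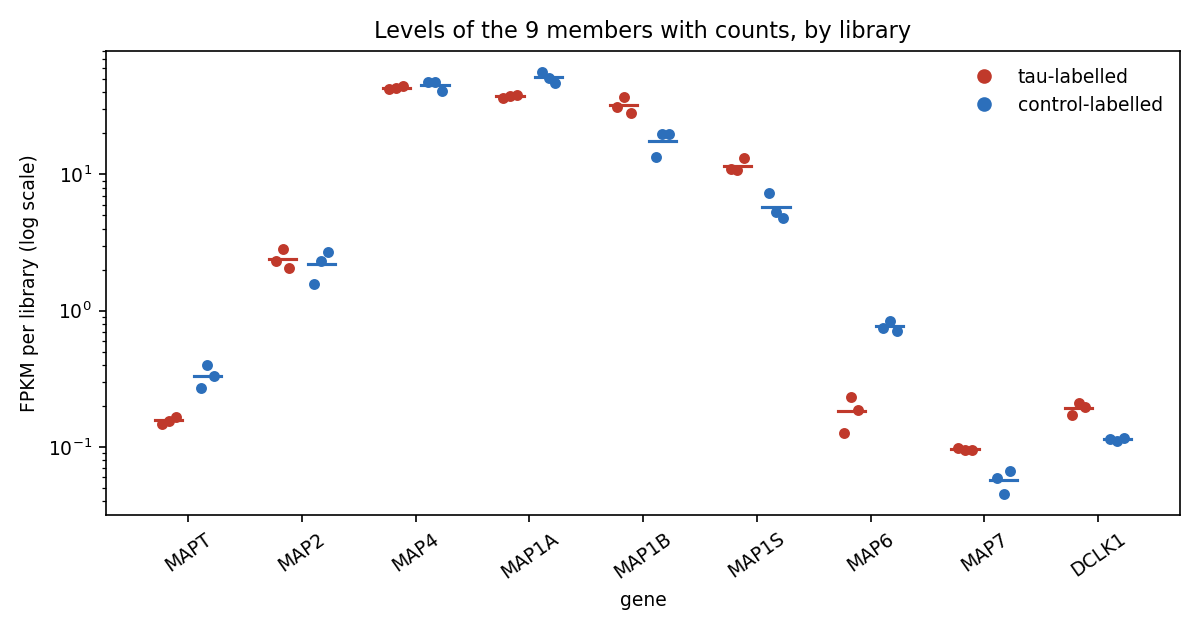
FPKM per library (vertical axis, log scale) of the 9 members with counts, tau-labelled libraries on the left and control-labelled on the right of each gene, with a line at the mean. MAP4, MAP1A and MAP1B lie above 13 FPKM in every library, while MAPT, MAP6, MAP7 and DCLK1 stay below 1 FPKM in all 6 libraries.

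The 3 MAP1 genes moved in different directions: MAP1A fell, while MAP1B and MAP1S rose. Because they part in this way, the start regions of the 3 genes are shown here (RefSeq, GRCh38.p14, 250 bases before to 50 after the start nearest to the deposited gene start, all on the plus strand). RefSeq windows were matched for 8 of the 10 members. The RefSeq starts used lay 4, 241 and 238 bases from the deposited starts of MAP1A, MAP1B and MAP1S. By the deposited coordinates, the windows of MAP1B and MAP1S therefore lie almost wholly inside the gene. Capitals mark 3 promoter motifs found on either strand, the TATA box letters TATAAA, the GC box GGGCGG and the CCAAT box.
MAP1A, chr15:43510704-43511003: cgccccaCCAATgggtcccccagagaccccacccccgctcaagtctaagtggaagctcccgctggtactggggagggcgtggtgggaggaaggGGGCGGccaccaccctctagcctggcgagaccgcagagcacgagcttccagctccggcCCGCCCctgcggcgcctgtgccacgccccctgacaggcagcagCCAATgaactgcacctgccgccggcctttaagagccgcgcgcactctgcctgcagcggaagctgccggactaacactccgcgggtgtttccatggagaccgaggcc
MAP1B, chr5:72107225-72107524: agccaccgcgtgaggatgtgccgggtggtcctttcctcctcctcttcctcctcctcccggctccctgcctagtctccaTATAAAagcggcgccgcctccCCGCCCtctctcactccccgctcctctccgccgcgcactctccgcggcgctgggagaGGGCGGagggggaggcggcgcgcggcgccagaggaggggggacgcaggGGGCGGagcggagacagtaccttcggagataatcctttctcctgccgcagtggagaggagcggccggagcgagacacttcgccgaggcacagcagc
MAP1S, chr19:17719230-17719529: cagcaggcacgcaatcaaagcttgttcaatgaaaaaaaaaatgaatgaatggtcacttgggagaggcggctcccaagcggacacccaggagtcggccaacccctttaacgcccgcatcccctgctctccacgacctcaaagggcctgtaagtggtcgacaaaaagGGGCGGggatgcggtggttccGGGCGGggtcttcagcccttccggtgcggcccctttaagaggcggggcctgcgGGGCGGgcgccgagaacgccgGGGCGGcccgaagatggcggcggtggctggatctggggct
The window of MAP1A held 2 matches of the CCAAT letters and no TATAAA, the window of MAP1B held 1 TATAAA and no CCAAT, and that of MAP1S held neither. GC boxes numbered 2 in MAP1A, 3 in MAP1B and 4 in MAP1S. Among 35116 windows of the same length, 11.5% held TATAAA, 45.0% GGGCGG and 34.6% CCAAT. These matches describe the letters of the windows and say nothing of which factors act there. The 3 windows had 23, 31 and 25 CpG pairs for MAP1A, MAP1B and MAP1S, against a median of 14.

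MAP1A (ENSG00000166963, chromosome 15, 43510958 to 43531620), the family member known from mature neurons, had 36.4, 37.6 and 38.4 FPKM in tau-labelled libraries 1, 2 and 3. It had 56.7, 50.9 and 47.3 FPKM in control-labelled libraries 1, 2 and 3. All tau-labelled values lay below all control-labelled ones. MAP1A fell by edgeR's fit, with a log2 fold change of -0.58 ± 0.11 (SE, adjusted p = 0.00245).

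MAP1B (ENSG00000131711, chromosome 5, 72107234 to 72209565), the member known from growing axons, had 31.2, 37.2 and 28.4 FPKM in tau-labelled libraries 1, 2 and 3. It had 13.4, 19.8 and 19.8 FPKM in control-labelled libraries 1, 2 and 3. The groups did not overlap, and control-labelled library 1 was the lowest of all. MAP1B rose 1.69-fold by edgeR's fit (log2 fold change 0.75 ± 0.15, SE, adjusted p = 0.00305). An unnamed antisense RNA across its start, ENSG00000285804, had 44, 8 and 4 counts in the tau-labelled and 0, 17 and 16 in the control-labelled libraries.

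MAP1S (ENSG00000130479, chromosome 19, 17719242 to 17734513), the short and widely expressed member, had 10.9, 10.8 and 13.2 FPKM in tau-labelled libraries 1, 2 and 3. It had 7.28, 5.26 and 4.76 FPKM in control-labelled libraries 1, 2 and 3. The tau-labelled libraries were all higher, and here control-labelled library 1 was the highest of its group. MAP1S rose 1.85-fold by edgeR's fit (log2 fold change 0.89 ± 0.19, SE, adjusted p = 0.00406).

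The summed FPKM of the 3 MAP1 genes was 78.6, 85.5 and 80.0 in tau-labelled libraries 1, 2 and 3, against 77.4, 75.9 and 71.9 in control-labelled libraries 1, 2 and 3. Its make-up differed more than its size. MAP1A held 46.1% ± 2.05 of it in the tau-labelled and 68.7% ± 3.99 in the control-labelled libraries (SD, n = 3 each). MAP1B held 39.6% ± 4.02 and 23.7% ± 5.52, and MAP1S 14.3% ± 2.01 and 7.65% ± 1.53. MAP1A stood at 1.17, 1.01 and 1.35 times MAP1B in tau-labelled libraries 1, 2 and 3, against 4.22, 2.58 and 2.38 times in control-labelled libraries 1, 2 and 3. The groups did not overlap, and the difference of this ratio was -1.34 on the log2 scale (two-sided exact permutation test, p = 0.1, the smallest possible, adjusted p = 0.2). The ratio of MAP1S to MAP1B overlapped between the groups, with a log2 difference of 0.15 (exact permutation p = 0.7, adjusted 0.7).

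**Figure D3:**
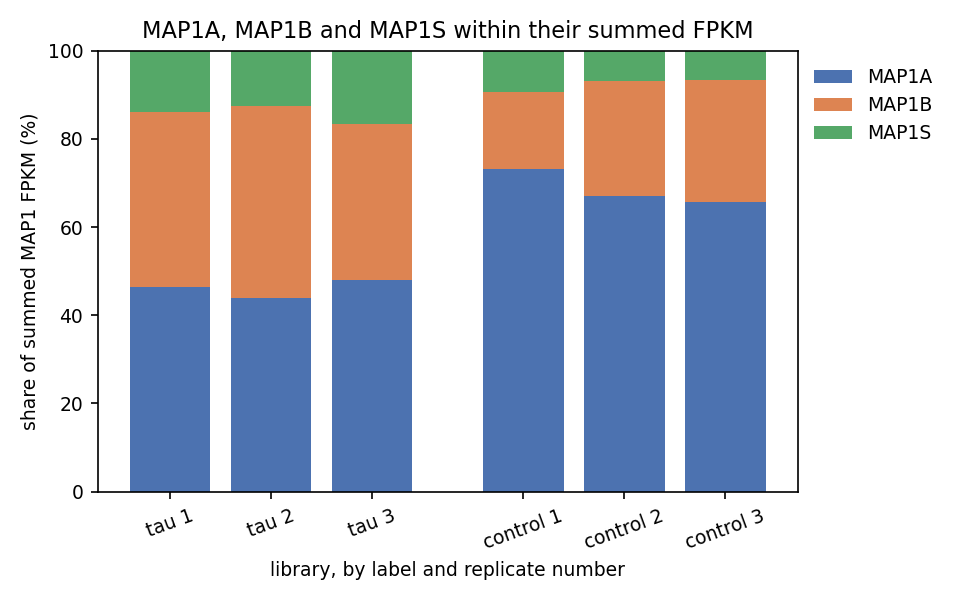
Share of the summed MAP1 FPKM held by MAP1A, MAP1B and MAP1S (vertical axis, percent) in each library, tau-labelled libraries left and control-labelled right. MAP1A takes 43.9% to 48.0% in the tau-labelled and 65.8% to 73.2% in the control-labelled libraries.

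MAP6, the cold-stability protein also called STOP, changed most among the members. MAP6 (ENSG00000171533, chromosome 11, 75586918 to 75669038, minus strand) had 0.127, 0.234 and 0.187 FPKM in tau-labelled libraries 1, 2 and 3, against 0.747, 0.840 and 0.709 FPKM in control-labelled libraries 1, 2 and 3. Every tau-labelled value lay under every control-labelled value by a wide margin. The counts were 53, 94 and 84 in the tau-labelled and 324, 344 and 307 in the control-labelled libraries. MAP6 fell 4.49-fold by edgeR's fit (log2 fold change -2.17 ± 0.26, SE, adjusted p = 0.000213), a change larger in size than that of 94.7% of the genes tested. An unnamed antisense RNA that overlaps 7748 bases of MAP6, ENSG00000255326, had 33 counts over the tau-labelled and 17 over the control-labelled libraries.

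MAP7 (ENSG00000135525, chromosome 6, 136342281 to 136550819, minus strand), which recruits kinesin to microtubules, was the lowest member with counts. Counts of 35, 34 and 37 stood for it in tau-labelled libraries 1, 2 and 3, against 23, 16 and 25 in control-labelled libraries 1, 2 and 3, or 0.0986, 0.0942 and 0.0952 FPKM against 0.0594, 0.0453 and 0.0668 FPKM. The tau-labelled libraries lay above the control-labelled ones, but their counting intervals touched: the exact 95% Poisson interval began at 24.4 in tau-labelled library 1 and reached 36.9 in control-labelled library 3. These intervals cover counting error only. The log2 fold change of MAP7 was 0.64 ± 0.47 (SE), which did not pass (edgeR adjusted p = 0.302).

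The doublecortin pair was low or unread. DCX (ENSG00000077279, chromosome X, 111293779 to 111412429, minus strand), known from migrating young neurons, had 0 counts in all 6 libraries and was not tested. DCLK1 (ENSG00000133083, chromosome 13, 35768652 to 36131382, minus strand), which joins doublecortin domains to a protein kinase, was read with 159, 191 and 200 counts in the tau-labelled libraries, against 115, 102 and 115 in the control-labelled ones. In FPKM the tau-labelled libraries stood at 0.170, 0.208 and 0.195 and the control-labelled ones at 0.115, 0.109 and 0.116, with no overlap. DCLK1 rose 1.56-fold by edgeR's fit (log2 fold change 0.64 ± 0.22, SE, adjusted p = 0.0425). This call was lost in 15 of 17 other settings, including each of the 6 that left out a library (edgeR adjusted p 0.0538 to 0.125), while the direction held in all 17.

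Ordered by mean FPKM, the tau-labelled libraries ran MAP4, MAP1A, MAP1B, MAP1S, MAP2, DCLK1, MAP6, MAPT, MAP7 and DCX. The control-labelled libraries ran MAP1A, MAP4, MAP1B, MAP1S, MAP2, MAP6, MAPT, DCLK1, MAP7 and DCX. Neighbours whose ranges overlapped were MAP1A with MAP1B, DCLK1 with MAP6 and MAP6 with MAPT in the tau-labelled libraries, and MAP1A with MAP4 in the control-labelled ones. The 10 genes summed to 124, 132 and 127 FPKM in tau-labelled libraries 1, 2 and 3 and to 128, 128 and 117 FPKM in control-labelled libraries 1, 2 and 3. MAP4 and the 3 MAP1 genes supplied nearly all of this: the MAP1 genes held 62.8% to 64.7% of it in the tau-labelled and 59.5% to 61.5% in the control-labelled libraries, and MAP4 34.0% ± 1.23 and 36.8% ± 1.37 (SD, n = 3 each).

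The members are long genes, with a median length of 12.7 kb for the 9 tested, against 4.86 kb over all genes tested. These lengths are those implied by the deposited counts and FPKM with total counts as depth. Their GC content ran from 42.1% in MAP2 to 68.1% in MAP1S (longest GENCODE 29 transcript), with a median of 50.0% over the 9 tested, against 48.6% over all genes tested. Under offsets for both properties, added after the data were seen, MAPT, MAP1A, MAP1B, MAP1S and MAP6 kept their calls, with log2 fold changes of -1.10, -0.47, 0.50, 1.23 and -2.02. DCLK1 lost its call (0.25, edgeR adjusted p = 0.417), and MAP2 and MAP4 passed as lower, so that 5 members fell.

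**Figure D4:**
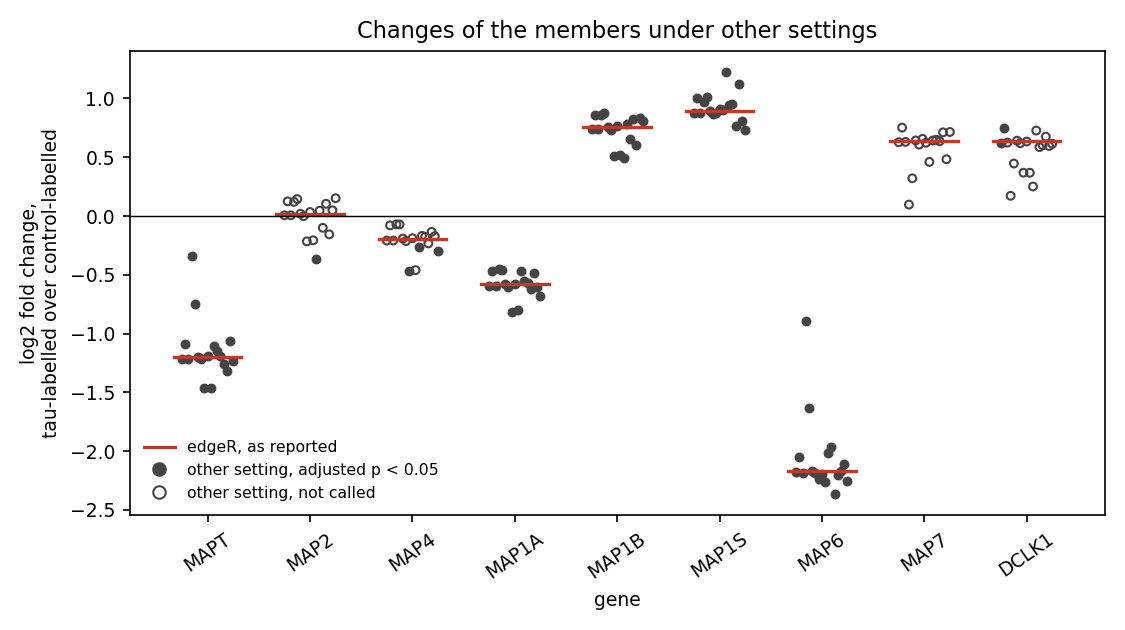
Log2 fold change of each member (vertical axis, tau-labelled over control-labelled libraries) as reported (red line) and under up to 17 other settings (points, filled where the adjusted p was below 0.05). MAPT, MAP1A, MAP1B, MAP1S and MAP6 have filled points in all 17 settings, DCLK1 in 2, and the points of MAP2 lie on both sides of 0.

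The genes whose levels over the 6 libraries ran closest to MAPT were found among 13621 protein-coding genes, by the root mean square difference of log2 CPM centred on each gene's mean. They were CACNB1, a calcium channel subunit, at 0.0831, XBP1, a transcription factor of the unfolded protein response, at 0.0866, CD72 at 0.0941, CADPS, a factor of vesicle release, at 0.0964 and BBOF1 at 0.106. The median gene stood at 0.698. Their log2 fold changes ran from -1.32 for BBOF1 to -1.15 for CADPS, around the -1.20 of MAPT. This nearness follows from how the genes were picked and is no separate result. XBP1, at 17.4 ± 1.06 FPKM in the tau-labelled and 38.4 ± 4.83 FPKM in the control-labelled libraries (SD, n = 3 each), was far more abundant than MAPT.

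Beyond the members, 5 lists of microtubule and tau-related genes held 75 tested genes. Of these, 36 rose and 13 fell, against 21.3% and 21.4% of all genes tested. The median log2 fold change of each list is set against 0.00439, that of all genes tested. Among 10 tested paralogues of the members, 2 rose, 2 fell and 6 did not pass, with a median of 0.29. This median was 0.15 without control-labelled library 2, 0.47 without control-labelled library 3, 0.04 with a mean count of at least 50, 0.10 with limma on log2(FPKM + 0.5) and 0.45 with GC content and gene length offsets. MAP7D3, a relative of MAP7, rose to 5.36 ± 0.569 FPKM in the tau-labelled libraries, against 2.19 ± 0.694 FPKM in the control-labelled ones (SD, n = 3 each, log2 fold change 1.18). MAP9, a spindle protein, rose with a log2 fold change of 1.16, and MAP7D2, another relative of MAP7, fell with -2.29 at 1.03 FPKM or less in all libraries. MAP7D1 fell with a log2 fold change of -0.59.

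Binders of the microtubule wall and of spindle fibres split in both directions: of 19 tested, 9 rose and 6 fell, with a median of 0.43. The median was 0.15 with gene length offsets, 0.16 with the replicate block added to them, 0.17 with GC content and gene length offsets and 0.21 with limma on log2(FPKM + 0.5). NAV2, a neuron navigator protein, rose to 7.80 ± 0.673 FPKM, against 1.66 ± 0.119 FPKM in the control-labelled libraries (SD, n = 3 each, log2 fold change 2.11). MTUS2 fell to 0.0585 ± 0.0140 FPKM, against 1.05 ± 0.174 FPKM in the control-labelled libraries (log2 fold change -4.26), and EML2 fell with -1.59.

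Proteins that track the growing plus end rose in 7 of 16 cases and fell in 1, with a median of 0.43, or 0.25 with gene length offsets and 0.21 with the replicate block added to them. CKAP5, a microtubule polymerase, rose to 30.1 ± 3.26 FPKM, against 11.7 ± 2.36 FPKM in the control-labelled libraries (SD, n = 3 each, log2 fold change 1.25). CLIP1, a plus-end linker, rose with a log2 fold change of 1.41, and KIF2A, a depolymerizing kinesin, with 0.96. The gene that fell was MAPRE3, an end-binding protein (log2 fold change -0.44). The number that fell was 0 with the replicate block, alone or with gene length offsets, and with GC content and gene length offsets. It was also 0 without tau-labelled library 2, and 2 without tau-labelled library 3.

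Of 10 tested minus-end binding and severing proteins, 9 rose and 0 fell, with a median of 0.74. With gene length offsets, or with the replicate block, 6 rose. With offsets for GC content and gene length 5 rose and the median was 0.41. With no filter on low counts, or with the replicate block and gene length offsets, 5 rose. The count was 4 without tau-labelled library 1, 4 without tau-labelled library 2, 4 without control-labelled library 1 and 5 without control-labelled library 2, and 1 member fell without tau-labelled library 3. FIGNL1, a relative of the severing enzyme fidgetin, CAMSAP2 and CAMSAP1, which cap minus ends, rose with log2 fold changes of 1.20, 1.13 and 0.75.

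Of 20 tested proteins that bind or handle tau, 9 rose and 4 fell, with a median of 0.25, or 0.15 with GC content and gene length offsets and 0.37 with limma at either pseudocount. HSP90AA1, a chaperone, rose to 410 ± 28.3 FPKM, against 164 ± 27.8 FPKM in the control-labelled libraries (SD, n = 3 each, log2 fold change 1.21). FKBP5, a co-chaperone, rose with a log2 fold change of 0.92. BIN1, a membrane-bending protein that binds tau, fell to 11.3 ± 1.73 FPKM, against 19.4 ± 0.722 FPKM in the control-labelled libraries (log2 fold change -0.89). HDAC6, a tubulin deacetylase, and STUB1, a ubiquitin ligase, also fell, with log2 fold changes of -0.54 for HDAC6 and -0.41 for STUB1. The number that fell was 2 with limma on log2(FPKM + 0.5), 2 without tau-labelled library 2 and 2 without control-labelled library 2. The 3 genes with the smallest p in each list, 15 in all, kept their direction and their call in all 17 other settings, while STUB1 was called in 5, MAPRE3 in 13 and HDAC6 in 14. Picking the 15 by small p in these same libraries favours keeping the call, so this is no independent support.

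**Figure D5:**
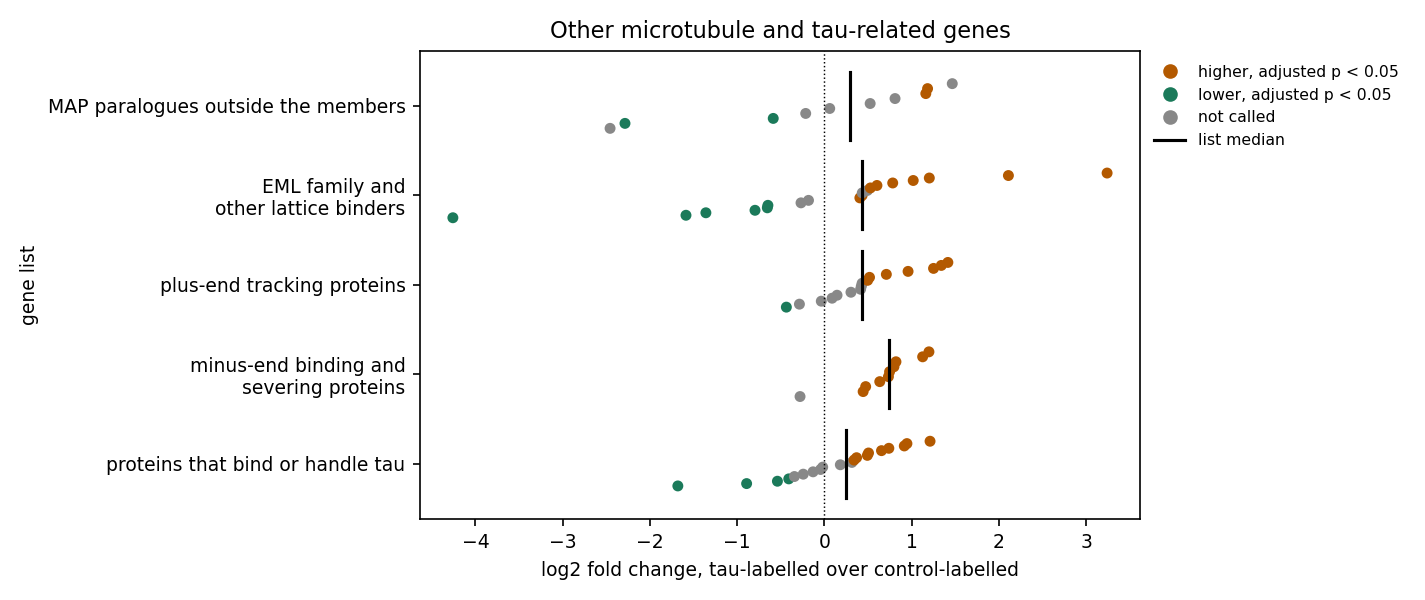
Log2 fold change (horizontal axis, tau-labelled over control-labelled libraries) of each tested gene in the 5 lists, coloured by call, with a black bar at the list median. Medians run from 0.25 for proteins that bind or handle tau to 0.74 for minus-end binding and severing proteins.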

How the data were processed

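The libraries were made from poly(A)-selected RNA with dUTP marking of the strand, per the labels' protocols. Per the submitters' processing notes, cutadapt 1.9, HISAT2 2.2.1, StringTie 2.1.6, DESeq2 and edgeR were named with the build GRCh38, without roles. No source used here gives the annotation release or the counting tool. The authors' deposited table pairs raw counts with FPKM for each gene in every library. FPKM shows levels and the counts carry the tests. Columns were matched by sample title, and the groups are those of the labels.

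The whole count table entered edgeR 4.0.16 (R 4.3.3): filterByExpr (minimum count 10, minimum total 15) left 17927 genes, scaled with TMM and compared by the two-sided quasi-likelihood test (glmQLFit, glmQLFTest) on group alone. A standard error is the size of the log2 fold change divided by the square root of F. Other settings used DESeq2 1.42.0, limma 3.58.1 on log2(FPKM + 0.5) and log2(FPKM + 0.1), other scalings, filters and offsets, and left out each library. Loess offsets (span 0.3) used GC content for 97.9% of genes. The edgeR comparison reported was tested on simulated counts, as were DESeq2, limma on log2(FPKM + 0.5), the replicate block and the gene length offsets. The other settings were not. On the log2 scale, the edgeR comparison called 6 of 67 genes changed by 0.5, 41 of 67 changed by 1 and 48 of 66 changed by 2. It also called 4 unchanged genes. A gene that did not pass may therefore still differ. Log2 CPM used TMM-adjusted library totals and a prior count of 2. No replicate pair was a duplicate: counts differed beyond sampling noise (chi-square per degree of freedom 20.0 to 77.5).

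The members and lists were chosen with earlier results of these data known. The genes named are the members, genes overlapping a member, the 3 smallest p-values in each list and the 5 genes closest to MAPT. The marker genes, MAP7D1, MAPRE3, HDAC6 and STUB1 were chosen for naming once their values were known. The 5 overlapping genes not described had 15 counts or fewer over a group. Some listed genes are counted but not reported by name here.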

Additional observations from a re-analysis of the deposited data

How the results depend on the processing

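MAPT, MAP1A, MAP1B, MAP1S and MAP6 kept their direction and call in all 17 other settings. MAPT ranged from -1.46 with gene length offsets to -0.34 with limma on log2(FPKM + 0.5), a scale that understates low genes and on which MAP6 stood at -0.89, and from -1.32 to -1.06 over the fits that left out a library. Between 2 and 3 members rose and between 3 and 5 fell, the 5 with offsets for GC content and gene length, added after the data were seen. MAP2 turned sign with a mean count of at least 50 (-0.001015), with gene length offsets (-0.22), with the replicate block and gene length offsets (-0.21), with GC content and gene length offsets (-0.36), without control-labelled library 1 (-0.16) and without tau-labelled library 2 (-0.10). It stayed positive in the other fits that left out a library, up to 0.15. MAP7 has no value with a mean count of at least 50. Library size alone moved the median of all genes to 0.12. Listed genes that rose numbered 26 to 39 and those that fell 9 to 14. Same-numbered libraries did not deviate together (correlations -0.04, -0.01 and -0.09, against -0.08 to 0.11 for other pairs). No pairing by number was seen, but 3 libraries per label cannot exclude one. With the replicate block, 2 members rose and 3 fell, MAPT stood at -1.19, and 31 listed genes rose and 10 fell. Over all genes 3181 rose and 3139 fell, against 3822 and 3830 without it. Low counts limit what can be said of MAP7, DCX and DCLK1. MAPT and MAP6 also stood low in the tau-labelled libraries, with means of 0.156 and 0.182 FPKM, and share this limit.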
